A study of Mus musculus with 12 samples.

Results

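Tet2, Dnmt3a, Asxl1, Ezh2, Kmt2a, Wt1, Idh2 and Nf1 are genes that are recurrently mutated or rearranged in myeloid leukaemia, and most encode enzymes or partners that write, erase or feed chromatin and DNA modifications. They were chosen by name, and every peak that overlapped the body of one of the genes or the 10 kb on either side of it (build mm10) was taken. All 8 were found among 21887 protein-coding genes of unique symbol. The data are chromatin immunoprecipitation sequencing (ChIP-seq) peak lists for H3K27ac, H3K4me1 and H3K4me3 in bone marrow cells of C57BL/6 mice that were sorted for cKit, the receptor of stem cell factor carried by blood stem and progenitor cells. For each mark 2 libraries came from mice with the genotype Phf6R274X Tg (here Tg), a name that gives a nonsense allele of the X-linked gene Phf6 and the usual short form for a transgene, and 2 from wild type mice (WT). The promoter that drives it, the state of the endogenous Phf6 gene, and the age and sex of the mice are not given in the sources used here. Nothing states that the 2 libraries of a genotype came from separate mice, so p-values measure the spread between libraries, which may be technical.

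As background, DNMT3A adds methyl groups to cytosine and TET2 oxidises them. IDH2 makes 2-oxoglutarate in mitochondria, and TET enzymes and many histone demethylases need 2-oxoglutarate to work. EZH2 is the catalytic subunit of Polycomb repressive complex PRC2, ASXL1 is a partner of the histone H2A deubiquitinase BAP1, and KMT2A methylates H3K4. WT1 is a zinc finger transcription factor, and neurofibromin, the product of Nf1, switches off RAS. Of the marks, H3K4me3 lies over active or poised promoters, H3K4me1 over enhancers and the edges of promoters, and H3K27ac over promoters and enhancers in use.

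The lists held 31257 to 42124 peaks for H3K27ac, 100316 to 130348 for H3K4me1 and 34920 to 39584 for H3K4me3, without read depths. In the 4 H3K4me3 lists each peak is named after the other genotype than the one on the label. Every H3K4me3 direction below is therefore by label, and would turn round if the names are right. Phf6 itself had 1 H3K27ac peak in each library. It had 1 and 6 H3K4me1 peaks in Tg, against 0 and 1 in WT, and by label 1 and 1 H3K4me3 peaks in Tg, against 7 and 5 in WT. H3K4me3 replicate 1 of both labels had peaks in Ddx3y, Eif2s3y, Kdm5d and Uty, which are Y-linked, and replicate 2 had 0. In H3K27ac and H3K4me1 these genes had 0 peaks in every library. Whether the H3K4me3 replicates differ in the sex of the mice was not tested. Kit carried peaks in all 12 libraries, and all 5 stem and progenitor markers (Kit, Cd34, Gata2, Myb and Flt3) had an H3K4me3 peak over their start in each of the 4 libraries. H3K27ac lay over the start of 0 and 3 of these 5 in Tg, against 3 and 3 in WT. Of the 4 T cell markers 0 had a peak over their start in any library. The erythroid markers with an annotated start, 3 of 4, had 1 or 2 with H3K4me3 there, and the B cell and the stroma and endothelium lists, with 1 such marker each, had 0 or 1. Mature granulocyte markers were present, with H3K4me3 over the start of 4 or 5 of 5. H3K27ac covered 35231 and 31415 bp of their windows in Tg, against 69276 and 69509 bp in WT. Both Tg libraries were also below both WT libraries in summed H3K27ac for the stem and progenitor list (12392 and 15251 bp in Tg, against 21298 and 17441 bp in WT). The same held for the B cell list (2257 and 3855 bp in Tg, against 5415 and 4170 bp in WT) and for stroma and endothelium (1271 and 625 bp in Tg, against 3313 and 2992 bp in WT). The T cell and erythroid lists overlapped between genotypes. Such an order was common: both Tg libraries were below both WT libraries in H3K27ac at 45.3% of 13604 genes, a share per gene and not per list. Total H3K27ac length was 28506073 and 33847128 bp in Tg, against 45724937 and 36599210 bp in WT. The part of these differences in the H3K27ac results below was not tested, and fewer marked cells cannot be told apart from less mark per cell.

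Of the 8 members 7 have an annotated start in the promoter table used here (RefSeq, GRCm38.p6, which is mm10). The 250 bases before the start are shown for Tet2, Dnmt3a and Asxl1, because these span the range of CpG density on which H3K4me3 was found and because Dnmt3a has 2 separate promoters. Capitals mark each CG dinucleotide, on the strand of transcription, 5′ to 3′.
Tet2, chr3:133544391-133544640, minus strand: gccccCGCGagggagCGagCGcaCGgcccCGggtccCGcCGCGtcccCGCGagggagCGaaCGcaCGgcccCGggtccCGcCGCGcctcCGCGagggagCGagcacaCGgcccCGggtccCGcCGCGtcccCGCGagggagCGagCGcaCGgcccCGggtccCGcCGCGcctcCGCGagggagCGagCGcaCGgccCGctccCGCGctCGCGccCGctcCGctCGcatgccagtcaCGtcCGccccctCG
Dnmt3a, first start, chr12:3806730-3806979, plus strand: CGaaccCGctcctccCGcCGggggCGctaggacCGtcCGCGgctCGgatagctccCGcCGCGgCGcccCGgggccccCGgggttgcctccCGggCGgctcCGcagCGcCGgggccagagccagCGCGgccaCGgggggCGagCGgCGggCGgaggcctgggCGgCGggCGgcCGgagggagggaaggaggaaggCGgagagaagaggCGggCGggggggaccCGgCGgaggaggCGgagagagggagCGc
Dnmt3a, internal start, chr12:3891494-3891743, plus strand: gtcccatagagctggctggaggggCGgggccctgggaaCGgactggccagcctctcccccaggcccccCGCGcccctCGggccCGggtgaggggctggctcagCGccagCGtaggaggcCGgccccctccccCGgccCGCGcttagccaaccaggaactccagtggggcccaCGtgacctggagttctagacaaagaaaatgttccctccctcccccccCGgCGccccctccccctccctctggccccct
Asxl1, chr2:153345580-153345829, plus strand: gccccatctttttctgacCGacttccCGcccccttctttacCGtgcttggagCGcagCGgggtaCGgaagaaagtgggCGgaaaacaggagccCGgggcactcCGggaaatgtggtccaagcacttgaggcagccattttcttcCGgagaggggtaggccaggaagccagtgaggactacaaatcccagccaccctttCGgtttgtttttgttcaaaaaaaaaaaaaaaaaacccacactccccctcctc

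The Tet2 stretch holds 51 CG, a number reached by 0.08% of 21263 such stretches of protein-coding genes, whose median is 10. The first Dnmt3a promoter holds 38 and the internal one 15, and a further start 180 bp below the first holds 40. Kmt2a has 29, Ezh2 23, Nf1 21 and Idh2 17. Asxl1 has 11, the fewest of the members, and lies near the middle of all promoters (percentile 53.8).

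Every one of these starts lay under an H3K4me3 peak in all 4 libraries. That was so for 9 of 9 member starts, against 55.1% of all annotated starts. The first Dnmt3a starts share a peak, and Wt1 has no start in this count. At Dnmt3a and Idh2 no H3K4me3 peak covered the upstream end of the gene body itself (3801559 and 80118608). H3K27ac covered 6 of the 9 starts in all 4 libraries, against 34.1% of all starts. H3K4me1 covered 0 of the 9 in all 4 libraries, against 3.42% of all starts. Wt1 stood apart, with no H3K4me3 or H3K27ac peak over either end of the gene in any library.

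Kmt2a and Asxl1 had the widest H3K4me3 promoter peaks of the members in every library. Kmt2a had 4774 and 4853 bp in Tg, against 4832 and 4713 bp in WT, above at least 95.5% of the genes with an H3K4me3 peak at the start in the same list. Asxl1 had 4137 and 4051 bp in Tg, against 3860 and 3909 bp in WT, at percentiles of 90.0 to 93.1. Ezh2 had 3692 and 3864 bp in Tg, against 3409 and 3324 bp in WT, at percentiles of 84.7 to 91.2. Both Tg libraries were thus above both WT libraries at Asxl1 and at Ezh2, a pattern shared by 15.1% of the starts with a peak in all 4 libraries. The difference at Ezh2 was 411.5 bp (two-sided exact permutation p = 0.33, the smallest that 2 against 2 libraries allow).

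Tet2 had 2792 and 3329 bp in Tg, against 3475 and 2756 bp in WT, and the groups overlapped. In WT replicate 1 this peak was wider than that of Ezh2, and in the other 3 libraries narrower. The peak over the first Dnmt3a starts was 2615 and 2763 bp wide in Tg, against 2835 and 2885 bp in WT. Both Tg libraries were below both WT libraries there, as at 17.1% of starts, and the 2 first starts share that peak. Idh2 and Nf1 had peaks of middling width, at percentiles of 40.8 to 52.9, with 1900 and 2032 bp in Tg, against 2174 and 1739 bp in WT, at Idh2. Nf1 had 1885 and 1951 bp in Tg, against 1893 and 1833 bp in WT.

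**Figure D1:**
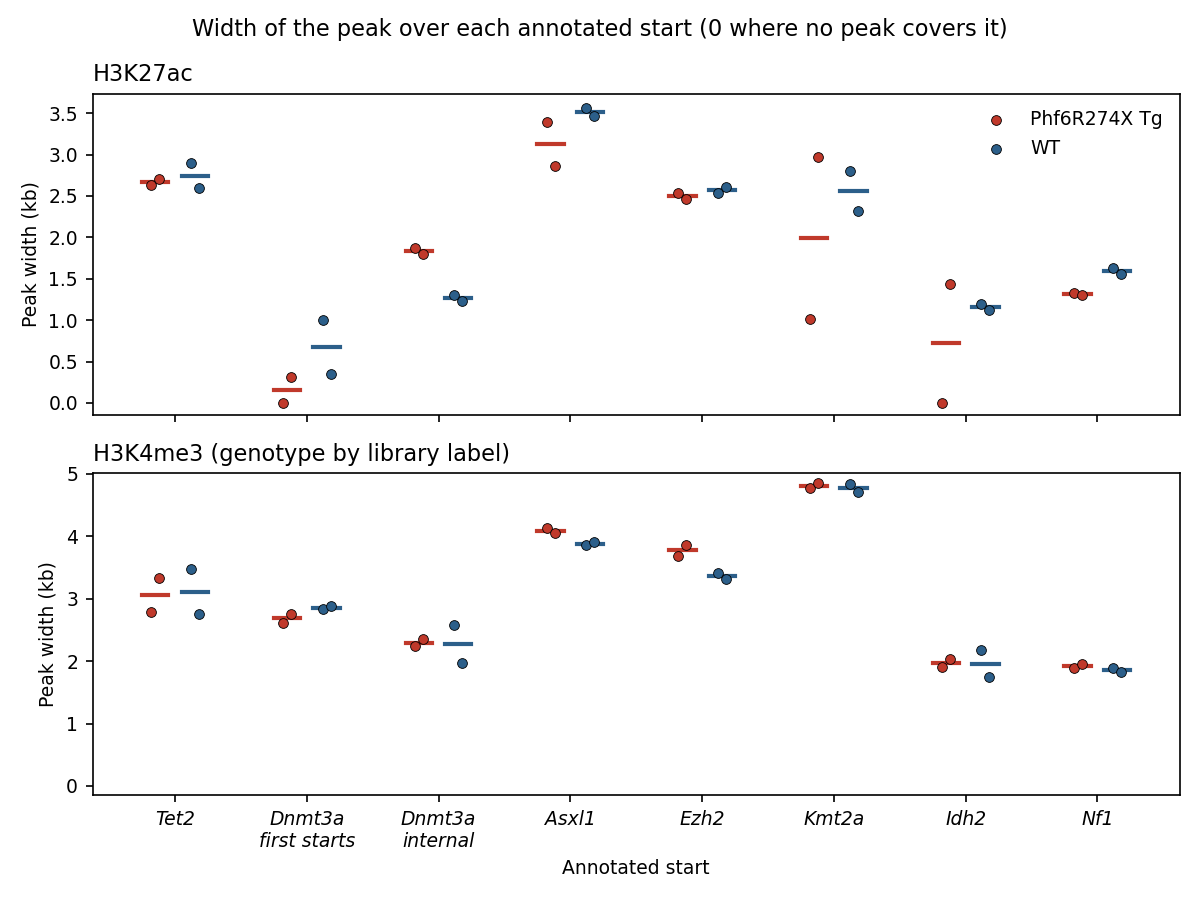
Width in kb of the H3K27ac (top) and H3K4me3 (bottom) peak over the annotated starts, a point per library and a bar at the mean of 2, with 0 where no peak covers the start. Of the first Dnmt3a starts only the one at 3807160 is plotted. At 3806980 the H3K27ac widths were 0 and 0 bp in Tg, against 1004 and 0 bp in WT. Kmt2a and Asxl1 have the widest H3K4me3 peaks, and at the internal Dnmt3a start both Tg libraries have wider H3K27ac peaks than both WT libraries.

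Compared over their whole windows, none of the 8 genes passed the test in any of the marks. The test was limma on the length covered by peaks, taken as log2 of the length plus 500 bp and quantile normalized within a mark, with p adjusted over all genes tested. All 8 had a peak in at least 2 of the 4 libraries in each mark and were tested. In H3K27ac 0 of 8 passed, against 0.382% of 13604 genes, and 0 of 8 had an unadjusted p under 0.05, against 13.3% of genes. In H3K4me1 0 of 8 passed, against 0% of 16134 genes, and 0 of 8 had an unadjusted p under 0.05, against 8.41%, or 1357 genes. In H3K4me3 0 of 8 passed, against 0% of 16136 genes, and 0 of 8 had an unadjusted p under 0.05, against 4.57%, or 737 genes. Adjusted p of the members (limma) ran from 0.441 to 0.964 in H3K27ac, from 0.604 to 0.991 in H3K4me1 and from 0.922 to 0.984 in H3K4me3.

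With Wt1 aside, the 95% intervals of the log2 change, Tg over WT, lay between -0.35 and 0.41 in H3K4me3. They lay between -0.66 and 0.71 in H3K27ac and between -0.87 and 0.66 in H3K4me1. The median log2 change of the members was 0.13 in H3K27ac (all genes 0.03), -0.16 in H3K4me1 (all genes 0.00) and 0.02 in H3K4me3 (all genes 0.00). In H3K4me1 7 of 8 members had a negative value, in H3K27ac 3 of 8 and in H3K4me3 4 of 8, and without normalization, which put the median of all genes at -0.22 in H3K27ac, Tet2, Dnmt3a, Kmt2a and Nf1 were negative there too. The 52 genes called in H3K27ac, 21 higher and 31 lower in Tg, depended on single libraries. There were 0 without either WT replicate, 404 without Tg replicate 1 and 531 without Tg replicate 2. Scaling to equal total covered length left 0 higher and 3 lower, and no normalization 0 higher and 1 lower.

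**Figure D2:**
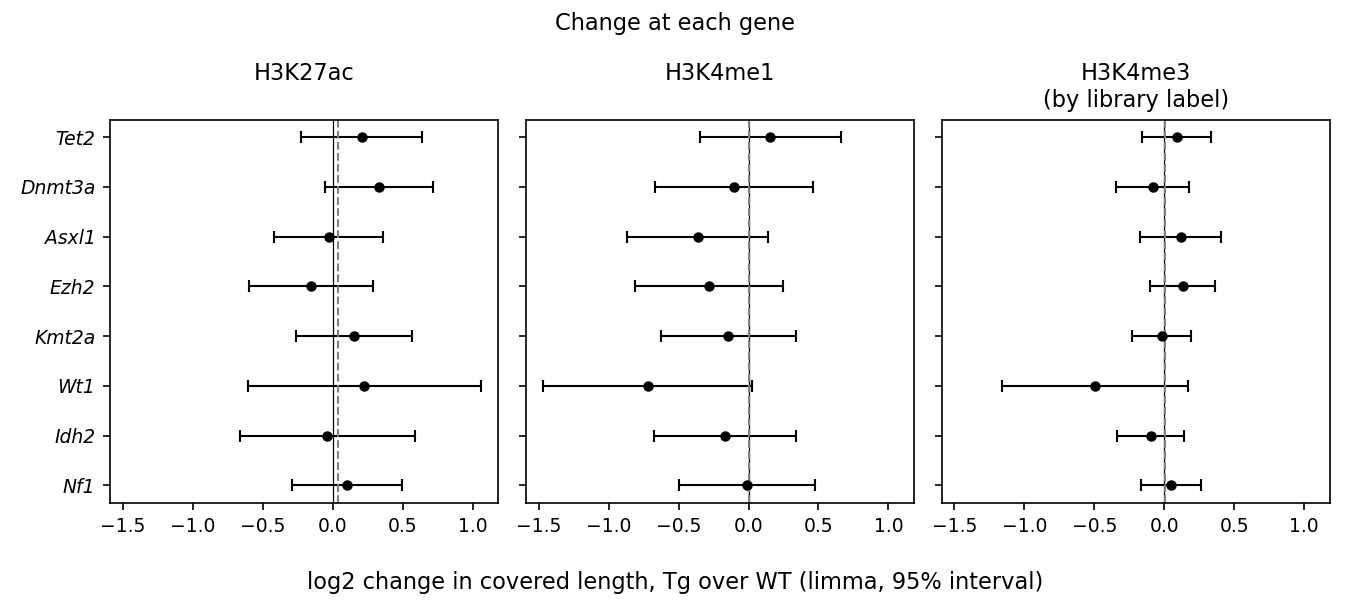
Log2 change in covered length at each gene, Tg over WT, with its 95% interval from limma, for the 3 marks; the dashed line is the median of all genes. Every interval includes 0, and those of H3K4me3 are the narrowest apart from Wt1.

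**Figure D3:**
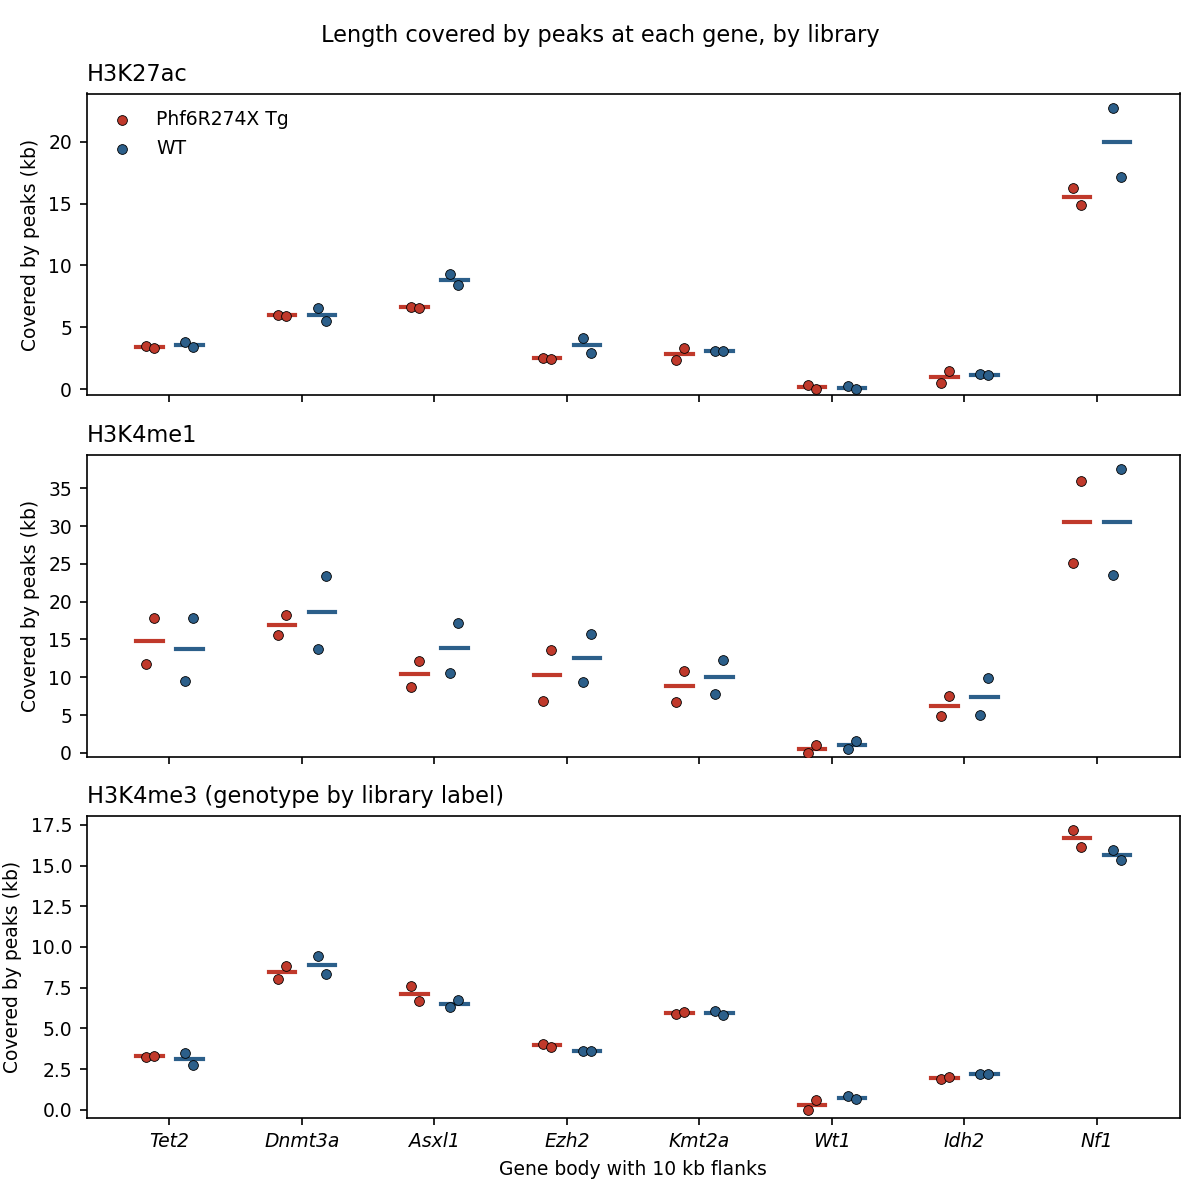
Length in kb covered by peaks in the window of each gene, a point per library and a bar at the mean of 2 libraries. In H3K27ac the Tg points lie below the WT points at Asxl1, Ezh2 and Nf1, and in H3K4me1 the Tg and WT points overlap at all 8 genes.

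Dnmt3a, the de novo DNA methyltransferase, lies on chromosome 12 from 3801559 to 3914443. Its first start among the promoters used here, at 3806980, lies inside the gene body and is not its upstream end. The internal start lies 84.8 kb below that first start. H3K27ac covered 6011 and 5926 bp of the Dnmt3a window in Tg, against 6525 and 5523 bp in WT, with a log2 change of 0.33 ± 0.15 (SE; adjusted p in limma = 0.441). The groups overlapped in length before normalization. The H3K27ac peak over the internal start was 1867 and 1799 bp wide in Tg, against 1305 and 1235 bp in WT. Both Tg libraries were above both WT libraries, as at 3.51% of starts with a peak in all 4 libraries, while 50.7% had both Tg libraries below. Among the 6 member starts with such a peak this was the 1 start above, and Asxl1, Ezh2 and Nf1 were the 3 below, Ezh2 by 1 bp. Within 2 kb of the internal start the covered length was 1867 and 1799 bp in Tg, against 1305 and 1652 bp in WT. Its log2 change was 0.42 ± 0.17 (SE; adjusted p in limma = 0.528). In WT replicate 2 a further peak lay beside the one over the start.

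At the first Dnmt3a starts H3K27ac was weak. Within 2 kb it covered 290 and 680 bp in Tg, against 1004 and 694 bp in WT, with a log2 change of -0.27 ± 0.14 (SE; adjusted p in limma = 0.613). The 2 promoters thus had values of opposite sign, but neither passed and the difference between them was not tested. In H3K4me3 the log2 changes were -0.08 ± 0.06 at the first and -0.03 ± 0.07 at the internal start (SE). Over all starts 0% passed this test in H3K27ac (0 of 10610, with 1059 at an unadjusted p under 0.05), 0% in H3K4me1 (0 of 13587, with 777) and 0% in H3K4me3 (0 of 13699, with 732). That test was chosen after the data were seen.

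Between its promoters Dnmt3a carried 3 further sites of H3K4me3, each in all 4 libraries. They lay 26.9, 49.3 and 63.9 kb below the first start (chromosome 12, 3833844 to 3835432, 3856258 to 3856810 and 3870855 to 3871887). H3K27ac overlapped the first 2 of these in all 4 libraries. At the first of these H3K27ac covered 1426 and 1423 bp in Tg, against 1367 and 1624 bp in WT, with overlapping groups. At the last, H3K27ac covered 1019 and 0 bp in Tg, against 683 and 470 bp in WT. H3K4me1 covered 15560 and 18278 bp of the Dnmt3a window in Tg, against 13712 and 23454 bp in WT, the WT values enclosing the Tg values.

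**Figure D4:**
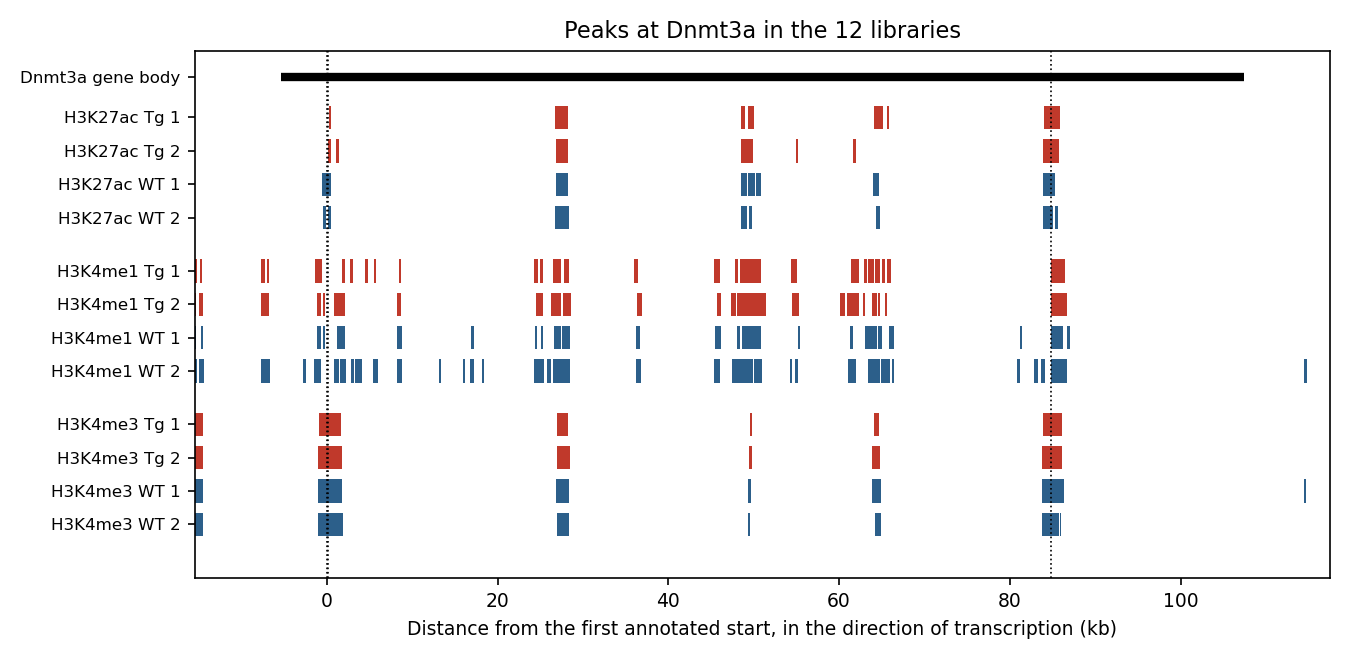
Peaks at Dnmt3a in the 12 libraries, by distance in kb from the first annotated start (dotted lines mark starts, the black bar the gene body). H3K4me3 and H3K27ac share sites at the internal start, at 26.9 kb and at 49.3 kb. H3K4me1 peaks overlap these sites and lie scattered through the rest of the window.

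Tet2, on chromosome 3 from 133463677 to 133545136, had 1 H3K4me3 site, its promoter. H3K27ac covered 3489 and 3298 bp of its window in Tg, against 3829 and 3376 bp in WT, with a log2 change of 0.21 ± 0.17 (SE; adjusted p in limma = 0.662). Without Tg replicate 1 it was 0.0471, and without Tg replicate 2 it was 0.38. Besides the promoter, H3K27ac marked an intragenic site (133525833 to 133526762) in all 4 libraries, with 603 and 593 bp in Tg, against 930 and 510 bp in WT. That site carried H3K4me1 in all 4 libraries and H3K4me3 in 0, the pattern of a distal active element, though its H3K27ac was weak. By −log10 q the H3K27ac peaks ranked at percentiles of 43.0 and 36.5 within their Tg lists, against 45.9 and 21.1 within their WT lists. H3K4me1 covered 11785 and 17819 bp in Tg, against 9507 and 17908 bp in WT, and replicate 2 was the higher library in both genotypes.

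Idh2, on chromosome 7 from 80094845 to 80118608, had a single H3K27ac region, at its promoter. It covered 477 and 1438 bp in Tg, against 1197 and 1121 bp in WT, and in Tg replicate 1 it stopped short of the start. The log2 change was -0.04 ± 0.25 (SE; adjusted p in limma = 0.964). An H3K4me1 region at the Idh2 start (80115288 to 80116083) was present in all 4 libraries. A peak reached over the start itself (80115350) in neither Tg library, and in both WT libraries, 678 and 757 bp wide, as at 0.781% of all starts. The near edges of these WT peaks lay at 80115288 and 80115327, close to the start, so this count turns on where a peak edge fell. Within 2 kb of that start H3K4me1 covered 1731 and 2084 bp in Tg, against 2072 and 2403 bp in WT, with overlapping groups and a log2 change of -0.12 ± 0.24 (SE). H3K4me3 covered 1900 and 2032 bp of the Idh2 window in Tg, against 2174 and 2205 bp in WT. In WT replicate 2 this included a flank peak of 466 bp found in that library alone, beside 1739 bp at the promoter. Without the flank peak the groups overlapped.

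Wt1, on chromosome 2 from 105126529 to 105173614, was nearly bare. H3K27ac covered 338 and 0 bp of its window in Tg, against 266 and 0 bp in WT, all of it in the flank beyond the upper end of the gene. H3K4me3 covered 0 and 583 bp in Tg, against 858 and 630 bp in WT, in small peaks around the end near 105126529, close to the start of the transcript Wt1os. H3K4me1 covered 0 and 1080 bp in Tg, against 540 and 1581 bp in WT. The log2 changes were -0.50 ± 0.25 in H3K4me3 (SE; adjusted p in limma = 0.922) and -0.72 ± 0.29 in H3K4me1 (SE; adjusted p in limma = 0.604). Both rest on Tg replicate 1, which had no peak of either mark. Without it the values were -0.13 and -0.35.

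Ezh2, on chromosome 6 from 47530274 to 47595270, combined a strong promoter with an intragenic region where H3K27ac was called in the WT libraries alone. The promoter region held 2536 and 2462 bp of H3K27ac in Tg, against 2537 and 2612 bp in WT. It also holds the start of F830010H11Rik, at 47595209, so its marks cannot be assigned to Ezh2 alone. A region 32.1 kb below the Ezh2 start (47561689 to 47562899) had no H3K27ac peak in either Tg library, against peaks of 1211 and 347 bp in WT. These peaks were weak, at percentiles of 40.1 and 12.2 of −log10 q within their lists. H3K4me1 lay over the same region in all 4 libraries, with 1194 and 1210 bp in Tg, against 793 and 1211 bp in WT, and H3K4me3 in none. Nearer the start, between 47565793 and 47568316, 3 H3K4me1 regions were present in neither Tg library and in both WT libraries, none of them with −log10 q of 5 in both. In the same gene 2 H3K4me1 regions (47563049 to 47563450 and 47582165 to 47582874) were present in both Tg libraries and in neither WT library. Of the 23 H3K4me1 regions in the Ezh2 window 13.0% were thus of the WT kind and 8.7% of the Tg kind. Over H3K4me1 regions in any gene window these shares were 3.53% and 1.81%, and the difference was not tested. Over the whole window H3K27ac covered 2536 and 2462 bp in Tg, against 4132 and 2959 bp in WT, with a log2 change of -0.15 ± 0.18 (SE; adjusted p in limma = 0.758). H3K4me1 covered 6917 and 13580 bp in Tg, against 9352 and 15723 bp in WT, with a log2 change of -0.29 ± 0.21 (SE; adjusted p in limma = 0.736). Without Tg replicate 1 this was -0.15, and without Tg replicate 2 it was -0.43.

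**Figure D5:**
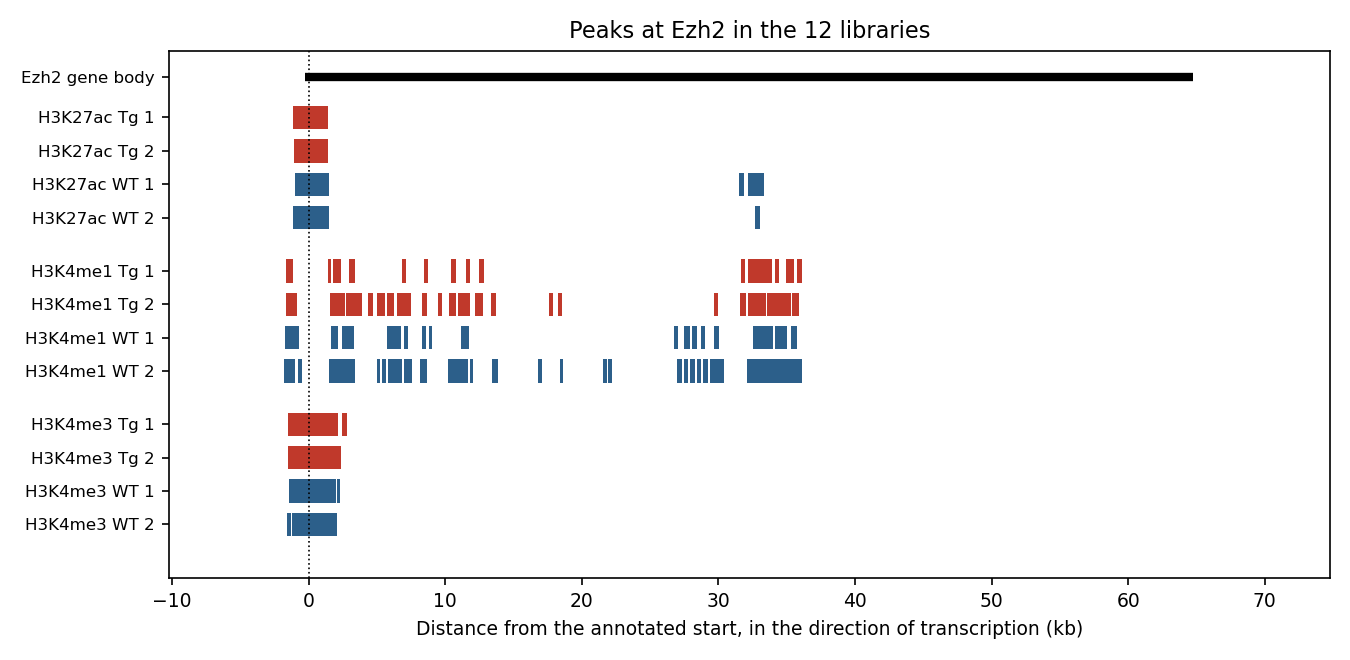
Peaks at Ezh2 in the 12 libraries, by distance in kb from the annotated start in the direction of transcription. The promoter peaks of H3K27ac and H3K4me3 are present in every library, and the intragenic H3K27ac peaks near 32.1 kb appear in the WT libraries.

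Asxl1, on chromosome 2 from 153345830 to 153404007, had the largest share of its window covered among the members in every library of H3K27ac (8.43% to 11.9%) and of H3K4me3 (8.08% to 9.69%), but not of H3K4me1. H3K27ac covered 6628 and 6588 bp in Tg, against 9312 and 8404 bp in WT. Both Tg libraries were below both WT libraries at Asxl1, Ezh2 and Nf1, 3 of 8 members, as at 45.3% of all genes tested. H3K27ac peaks covered 28506073 and 33847128 bp of the genome in Tg, against 45724937 and 36599210 bp in WT. No member had both above, against 5.59% of genes. After quantile normalization the log2 change at Asxl1 was -0.03 ± 0.16 (SE; adjusted p in limma = 0.954). A region 10.3 kb below the start (153356155 to 153357667), picked out after its values were seen, differed more. There H3K27ac covered 318 and 473 bp in Tg, against 1513 and 1392 bp in WT. By −log10 q the peaks ranked at percentiles of 14.3 and 9.63 within their Tg lists, against 78.4 and 77.1 within their WT lists. No test was made of single regions, and how many regions differ this far in length or rank was not computed. Lower H3K27ac in both Tg libraries was common over whole gene windows (45.3% of genes), which is an unlike measure. H3K4me1 there covered 442 and 1250 bp in Tg, against 983 and 1380 bp in WT. Over the whole window H3K4me1 covered 8761 and 12115 bp in Tg, against 10612 and 17133 bp in WT, with a log2 change of -0.36 ± 0.20 (SE; adjusted p in limma = 0.664). H3K4me3 at the region 10.3 kb below the start ran the other way by label, with 888 and 594 bp in Tg, against 369 and 645 bp in WT, and the groups overlapped.

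Kmt2a, on chromosome 9 from 44803355 to 44881352, differed little between libraries in H3K4me3. H3K4me3 covered 5879 and 5981 bp of its window in Tg, against 6083 and 5844 bp in WT, of which one site lay over the start of the neighbour Tmem25. Its log2 change was -0.02 ± 0.08 (SE; adjusted p in limma = 0.984). H3K27ac covered 2352 and 3299 bp in Tg, against 3048 and 3062 bp in WT, and in Tg replicate 1 the promoter peak was broken up, leaving 1014 bp over the start. H3K4me1 covered 6720 and 10883 bp in Tg, against 7733 and 12282 bp in WT, with overlapping groups and a log2 change of -0.14 ± 0.19 (SE; adjusted p in limma = 0.863).

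Nf1, on chromosome 11 from 79339590 to 79581609, holds other genes in its introns, and most of the promoter marks of the window lay there. H3K27ac covered 16229 and 14858 bp of the window in Tg, against 22762 and 17119 bp in WT, with a log2 change of 0.10 ± 0.16 (SE; adjusted p in limma = 0.825). The regions over the starts of Evi2 and Evi2b held 64.4% and 63.4% of the H3K27ac length of the window in Tg, against 50.4% and 68.6% in WT. For H3K4me3 they held 67.2% and 69.9% in Tg, against 68.5% and 70.1% in WT. At the start of Nf1 itself H3K27ac covered 1326 and 1306 bp in Tg, against 1636 and 1554 bp in WT. Within 2 kb of that start the log2 change was -0.03 ± 0.12 (SE; adjusted p in limma = 0.946). H3K27ac regions of one genotype lay at 79535726 to 79536444 (both Tg libraries) and at 79429655 to 79430357 (both WT libraries). Both were weak, with −log10 q of 6.35 and 1.48 in the Tg lists for the first, and of 8.69 and 4.24 in the WT lists for the second. Each made up 5.56% of the 18 H3K27ac regions in the Nf1 window. Over H3K27ac regions in any gene window the shares were 1.77% for Tg and 4.52% for WT. H3K4me1 covered 25080 and 36002 bp of the window in Tg, against 23535 and 37573 bp in WT, the WT values enclosing the Tg values.

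Peaks were also counted as regions merged over the 4 libraries of a mark. In H3K27ac 1 of 45 regions was present in both Tg libraries only (2.22%, against 1.77% of regions in any gene window) and 2 in both WT libraries only (4.44%, against 4.52%). In H3K4me1 2 of 146 were of the Tg kind (1.37%, against 1.81%) and 10 of the WT kind (6.85%, against 3.53%). In H3K4me3 0 of 32 were of either kind, against 1.43% for Tg and 2.11% for WT. Regions in all 4 libraries made up 42.2% in H3K27ac (all regions 43.2%), 37.7% in H3K4me1 (34.1%) and 68.8% in H3K4me3 (57.2%). The 10 WT regions of H3K4me1 lay in Ezh2 (3), Dnmt3a (2), Asxl1 (2), Kmt2a, Wt1 and Nf1, and 1 of them, in Asxl1, had −log10 q of at least 5 in both WT libraries. Rebuilt from such peaks alone, 2 of 100 regions were of the Tg kind and 3 of the WT kind. The share over all regions was not computed at that threshold, and the shares above do not serve for it. In covered length, 0 of 8 members had both Tg libraries above or both below the WT libraries in H3K4me1, against 2.5% and 6.48% of genes. In H3K4me3 Ezh2 and Nf1 were above and Wt1 and Idh2 below, 2 of 8 each, against 11.6% and 18.2%. At Idh2 this rests on the flank peak of WT replicate 2.

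Genes that work with the members were read from the same fit. Lists were taken of 8 genes of DNA methylation and its oxidation, 17 of Polycomb and BAP1, 17 of KMT2 complexes, 15 RAS regulators and 21 other myeloid leukaemia genes. In each mark 0 members of each list passed, and the smallest limma adjusted p was 0.197, for Cbx7, a Polycomb subunit, in H3K27ac. An unadjusted p under 0.05 was found in H3K27ac for 1 gene each of the DNA methylation and Polycomb lists, against 13.3% of all genes. In H3K4me1 it was found for 3 Polycomb, 1 KMT2, 1 RAS and 2 other leukaemia genes, against 8.41% of all genes, and in H3K4me3 for 0, against 4.57%. The median log2 change of the lists lay between -0.04 and 0.10 in H3K27ac, between -0.21 and 0.05 in H3K4me1 and between -0.07 and 0.01 in H3K4me3. The genes named here had the smallest p of their lists. Kdm6a, an X-linked H3K27 demethylase, had 1247 and 3546 bp of H3K4me1 in Tg, against 6639 and 10717 bp in WT. Both Tg libraries were below both WT libraries, as at 6.48% of genes, with a log2 change of -1.69 ± 0.22 (SE; adjusted p in limma = 0.436). The RAS regulator Rasa1 had 1385 and 3267 bp of H3K4me1 in Tg, against 4252 and 6496 bp in WT, the same order, with a log2 change of -1.05 ± 0.21 (SE; adjusted p in limma = 0.436). Tet1, a TET enzyme like Tet2 and the DNA methylation gene counted above for H3K27ac, had 255 and 1066 bp of it in Tg, against 0 and 0 bp in WT. Both Tg libraries were above both WT libraries, as at 5.59% of genes. Tet1 met the filter of at least 2 libraries through the Tg libraries alone, so its p is no support for a difference.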

How the data were processed

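ChIP-seq peak lists of 12 libraries were used, 2 per genotype and mark. By the submitters' processing notes the tools included MACS2, Bowtie2, Trim Galore, SAMtools, deepTools and FastQC, and the build was mm10. Tool versions, settings and any control library are not given in the sources used here. For every peak the authors deposited its position, its fold enrichment (a ratio), p and q on a −log10 scale, and a score that follows the q. The lists hold no read counts, so depth is unknown and no interval that needs it was computed. Strengths of peaks are the authors' and serve only to describe peaks or to rank or filter them within a list.

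Genes, starts and promoter sequences came from RefSeq tables of GRCm38.p6, and coordinates are 1-based. Covered length per window (gene with 10 kb flanks) was computed in Python 3.11.15, changed to log2 after adding 500 bp, quantile normalized and compared in limma 3.58.1 (R 4.3.3; Benjamini-Hochberg, threshold 0.05) for genes with a peak in at least 2 of 4 libraries. The script was tested on simulated data. Regions are overlapping or touching peaks of a mark merged, and 1 bp of a peak makes a region present in its library. The members and lists were chosen with earlier results of these data known. Of the related lists the rule names, per mark, genes past the threshold or else the 1 of smallest p, and only some of these are given values.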

Additional observations from a re-analysis of the deposited data

How the results depend on the processing

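None of the 308 values that the alternatives gave for the members passed limma's threshold, and 280 kept their direction. The members' H3K27ac values hang on the scaling. Unnormalized values put the median gene at -0.22, and Tet2 (-0.0737), Dnmt3a (-0.0081), Kmt2a (-0.11) and Nf1 (-0.34) turned negative, as Dnmt3a (-0.29) and Nf1 (-0.0456) did within 10 kb of the gene ends, where Asxl1 (0.0364) and Ezh2 (0.19) turned positive. With peaks of −log10 q of at least 5, Ezh2 (0.0043), Idh2 (0.0013) and Kmt2a (-0.0778) turned in H3K27ac, Nf1 (0.14) in H3K4me1 and Idh2 (0.0458) in H3K4me3. Nf1 also turned in H3K4me1 without normalization (0.0145), and in H3K4me3 Kmt2a turned with equal total length (0.0058) and Kmt2a (0.00040) and Idh2 (0.0307) in gene bodies alone. With one library left out, H3K27ac values ran from -0.11 to 0.0537 at Asxl1, -0.31 to 0.00056 at Ezh2, -0.38 to 0.29 at Idh2 and -0.0042 to 0.21 at Nf1. H3K4me1 values ran from -0.28 to 0.0788 at Dnmt3a and -0.0363 to 0.012 at Nf1, and H3K4me3 values from -0.18 to 0.0117 at Dnmt3a and -0.0561 to 0.0217 at Kmt2a. The cause was not tested. Wt1 had no value where the filter left it out.

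Over all genes, the 52 H3K27ac calls became 9 with 100 bp added, 9 without the filter, 29 with stricter peaks, 1 without normalization, 3 at equal total length, 0 within 2 kb of starts (an alternative chosen after seeing the data, as was the crossed block) and between 0 and 531 with one library left out. H3K4me1 gave 1 call with 2000 bp added and 1 without normalization, and H3K4me3 gave 8 without the filter, against 0 each. With the replicate number as a block there were 47 calls in H3K27ac, 0 in H3K4me1 and 0 in H3K4me3, and 0 members among them. The deviations of same-numbered libraries correlated at -0.233 in H3K27ac, 0.261 in H3K4me1 and -0.0895 in H3K4me3 across genes, which are not independent, and a block on crossed numbers gave 76 calls in H3K27ac. Member regions of one genotype numbered 6 to 13 in H3K27ac, 24 to 43 in H3K4me1 and 0 to 4 in H3K4me3 with one library left out, which raises them by construction, and 5 in H3K4me1 with stricter peaks, against 3, 12 and 0. For these counts of regions no share over all regions was computed outside the main setting. The 2 libraries a genotype limit the precision, for which the intervals above stand, and the effect of depth is unknown.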

Other observations

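Across the 12 libraries, with values centred within each mark, the gene whose covered length moved most like that of Ezh2 was Opn3 (Pearson's r 0.965), among 13197 genes tested in all 3 marks and outside the member's own window. For Asxl1 it was Ubac1 (0.952), for Idh2 1190005I06Rik (0.946), for Tet2 Ino80d (0.940) and for Kmt2a Zfp362 (0.939). For Dnmt3a it was Gla (0.928), for Wt1 Zfp469 (0.927) and for Nf1 Dhx15 (0.912). All genes are read from the same 12 libraries, with the same unknown depths and the same genotypes. Each gene named is also the highest of many, so these values are a description only.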
